A study of Mus musculus with 56 samples.

Results

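Kupffer cells are the macrophages that live in the liver sinusoids. The genes described here are 10 markers of Kupffer cells and macrophages, Clec4f, Vsig4, Cd5l, Marco, Timd4, Csf1r, Cd68, Cd163, Lyz2 and Ccl6, and 9 of them were found by gene symbol among the 23813 genes of a liver RNA-seq table. Cd68 was not analysed here. The markers were chosen on the RNA values of these same livers, so their differences between groups are a description and carry no test. Tests of differences between groups are reported only for genes outside the set. Outlying livers within a group were also looked for among the markers.

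Livers came from 12 male mice, 4 per group. All 3 groups ate a diet poor in iodine that held PTU (propylthiouracil), an inhibitor of thyroid hormone synthesis. Hypothyroid wildtype (WT) mice then received vehicle, hyperthyroid WT mice received injections of the thyroid hormone T3 for the last days of the diet, and hypothyroid L-NCOR1ΔID mice received vehicle. L-NCOR1ΔID mice carry, in liver only, a form of the corepressor NCOR1 without domains that contact the thyroid hormone receptor (TR), on a mixed C57BL/6;129S background. The study lists ages by group of its mice, and there the L-NCOR1ΔID mice were younger on average than the WT mice on PTU with vehicle or with repeated T3, so genotype and age cannot be told apart here. The ages of the sequenced mice and the strain of the WT mice of this table are not given in the sources used here. A difference of strain can therefore not be told apart from genotype either. The T3 comparison asks what thyroid hormone does to liver RNA, and the L-NCOR1ΔID comparison asks what NCOR1 without these domains does in hypothyroid mice. The paper proposes that the deleted domains may also matter for bringing NCOR1 to regulators other than TR. Both comparisons use the same 4 hypothyroid WT livers, so their values are set side by side and are not independent. RNA was made from whole liver tissue, so more or fewer Kupffer cells and more or less RNA per cell cannot be told apart, and neither can resident cells and newly arrived macrophages.

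In mice, resident Kupffer cells carry the lectin Clec4f, the phosphatidylserine receptor Timd4 (Tim-4), the complement receptor Vsig4 (CRIg) and the secreted scavenger protein Cd5l (AIM), and they clear bacteria, debris and aged red blood cells from portal blood. The scavenger receptor Marco binds bacteria and particles, and Cd163 takes up haemoglobin bound to haptoglobin. Csf1r, the receptor for the growth factors Csf1 and Il34, sustains macrophages in general, Lyz2 encodes lysozyme and is also made by monocytes and neutrophils, and Ccl6 encodes a chemokine of myeloid cells.

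The promoters of 4 of the markers are shown because these genes took different courses in the L-NCOR1ΔID livers described further on. Each is the 250 bases before the annotated start of the gene on mm9 (GENCODE M1 gene models, NCBIM37 genome), written 5′ to 3′ on the strand of the gene. Capitals mark the PU box, GAGGAA or its reverse complement TTCCTC, the core of sites bound by the macrophage transcription factor that Spi1 encodes. Clec4f lies at chr6:83606182-83606431 on the minus strand, Vsig4 at chrX:93488778-93489027 on the minus strand, Cd5l at chr3:87161553-87161802 on the plus strand and Marco at chr1:122401662-122401911 on the minus strand.
Clec4f: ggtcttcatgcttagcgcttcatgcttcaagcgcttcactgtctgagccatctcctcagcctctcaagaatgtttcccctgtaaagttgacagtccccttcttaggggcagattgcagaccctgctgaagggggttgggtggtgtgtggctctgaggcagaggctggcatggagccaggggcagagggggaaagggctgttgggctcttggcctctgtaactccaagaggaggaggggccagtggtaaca
Vsig4: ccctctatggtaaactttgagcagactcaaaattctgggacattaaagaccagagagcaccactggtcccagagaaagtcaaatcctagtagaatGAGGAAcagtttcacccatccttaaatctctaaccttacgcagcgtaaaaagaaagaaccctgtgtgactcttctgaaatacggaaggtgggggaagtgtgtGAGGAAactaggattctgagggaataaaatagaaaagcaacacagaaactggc
Cd5l: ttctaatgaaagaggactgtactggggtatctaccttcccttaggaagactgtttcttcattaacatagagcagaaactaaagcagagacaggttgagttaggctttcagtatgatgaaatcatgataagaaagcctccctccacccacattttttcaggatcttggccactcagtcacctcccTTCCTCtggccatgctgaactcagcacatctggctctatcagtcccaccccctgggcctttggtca
Marco: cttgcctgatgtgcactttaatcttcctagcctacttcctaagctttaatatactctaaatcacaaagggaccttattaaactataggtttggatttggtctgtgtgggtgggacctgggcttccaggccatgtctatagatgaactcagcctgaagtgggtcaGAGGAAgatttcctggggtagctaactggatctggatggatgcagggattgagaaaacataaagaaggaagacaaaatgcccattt
The PU box stood in the promoters of 4 of the 9 markers, with 2 copies in Vsig4, starting 155 and 53 bases before the gene, and 1 each in Cd5l, Marco and Lyz2, starting 66, 86 and 246 bases before it. Of 21882 promoters of the same length, 22.9% held it, as did 22.2% of 10333 promoters of genes with a mean of at least 1 RPKM. Clec4f, Timd4, Csf1r, Cd163 and Ccl6 had no copy in this window. A match of these letters is a description of the sequence and not evidence that a factor binds there.

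Levels are in RPKM, reads per kilobase of transcript scaled to the size of the library, which allows levels of different genes to be compared. The steps between the lowest RPKM values of 7809 genes with a single coding transcript gave about 29400000 to 38100000 reads per hypothyroid WT library, 21300000 to 26000000 per hyperthyroid WT library and 38100000 to 42900000 per L-NCOR1ΔID library. Over the 1985 bases of the Marco transcript the lowest Marco value then stands for about 18 reads, and the lowest values of the other 8 markers for about 70 to 1009 reads. The hepatocyte marker list had all 10 genes detected, and its summed level was 43416 to 55817 RPKM in hypothyroid WT livers, 24176 to 33232 in hyperthyroid WT livers and 36235 to 43144 in L-NCOR1ΔID livers. Ncor1 was at 14.7 ± 0.665 RPKM in hypothyroid WT livers and at 13 ± 0.844 in L-NCOR1ΔID livers (SD, n = 4), but this value covers the whole transcript and does not check the deletion.

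All 9 markers were higher in every hyperthyroid WT liver than in every hypothyroid WT liver. Differences are given below as differences of mean log2(RPKM + 0.1) with the standard error (SE) from limma, a linear model fitted to all genes. The 9 differences ran from 1.31 to 3.98, with a median of 2.04, beside a median of 0.23 over the 13941 genes that passed the filter on low values. All 9 would be counted as higher at the thresholds used for other genes (adjusted p under 0.01 and a log2 difference above 1), beside 8.28% of all genes. Groups without overlap in this direction were found for 35.8% of all genes. Since the markers were chosen on these values, nothing is read from either count.

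**Figure D1:**
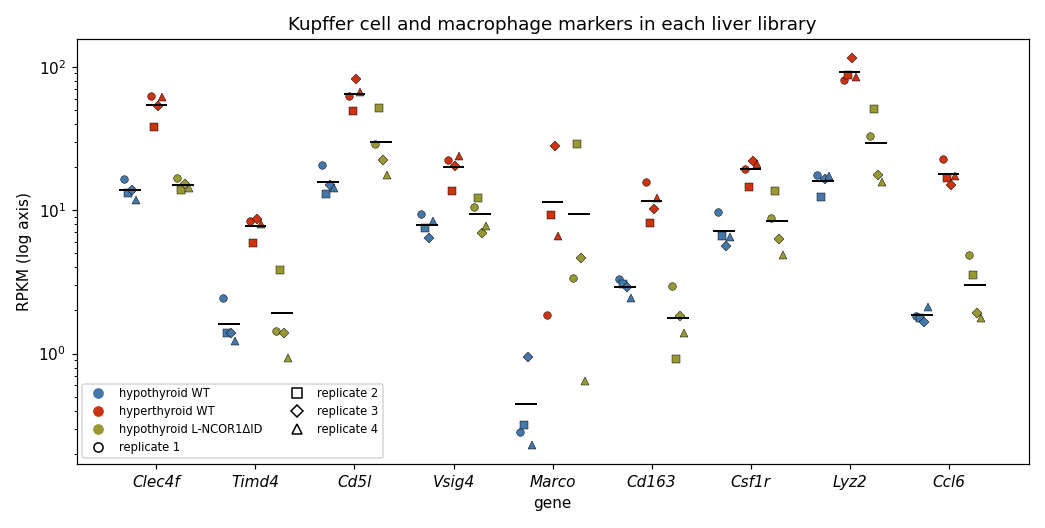
RPKM (log axis) of the 9 markers in each of 12 liver libraries, coloured by group, with a symbol for each replicate and a black bar at the group mean. The 4 hyperthyroid WT libraries lie above the 4 hypothyroid WT libraries for every marker, and the L-NCOR1ΔID libraries overlap the hypothyroid WT libraries for every marker.

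The markers most particular to resident Kupffer cells are described first. Clec4f was at 16.6, 13.2, 13.9 and 11.7 RPKM in hypothyroid WT replicates 1 to 4 and at 62.4, 38.2, 53.7 and 61.6 RPKM in hyperthyroid WT replicates 1 to 4. The lowest hyperthyroid value was thus well above the highest hypothyroid value, and the log2 difference was 1.94 (SE 0.17), a fold of 3.83. Timd4 was at 2.44, 1.39, 1.39 and 1.23 RPKM in hypothyroid WT livers and at 8.36, 5.92, 8.71 and 7.99 RPKM in hyperthyroid WT livers, a log2 difference of 2.23 (SE 0.21). Timd4 was the least abundant marker by mean in hyperthyroid livers.

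Cd5l was at 20.6, 13, 15 and 14.4 RPKM in hypothyroid WT livers and at 62.8, 49, 82.3 and 66.4 RPKM in hyperthyroid WT livers, a log2 difference of 2.04 (SE 0.18). Vsig4 was at 9.49, 7.47, 6.39 and 8.42 RPKM in hypothyroid WT livers and at 22.5, 13.6, 20.3 and 23.8 RPKM in hyperthyroid WT livers. Its log2 difference of 1.31 (SE 0.18) was the smallest of the 9. Hyperthyroid WT replicate 2 was the lowest of its group for 6 of the 9 markers, Clec4f, Timd4, Cd5l and Vsig4 among them. Hypothyroid WT replicate 1, which both comparisons share, was the highest of its group for 7 of the 9 markers and the lowest for none. Without that library the median difference of the 9 was 2.17 with T3 and 0.33 in L-NCOR1ΔID livers, beside 2.04 and 0.21 with all libraries.

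Among the scavenger receptors, Marco varied more from liver to liver than Cd163 did. Cd163 was at 3.31, 3.04, 2.9 and 2.44 RPKM in hypothyroid WT livers and at 15.8, 8.11, 10.2 and 12.1 RPKM in hyperthyroid WT livers, a log2 difference of 1.91 (SE 0.19). Marco was at 0.284, 0.32, 0.95 and 0.232 RPKM in hypothyroid WT livers and at 1.87, 9.31, 27.9 and 6.57 RPKM in hyperthyroid WT livers. Its log2 difference of 3.98 was the largest of the 9 and also had the largest error (SE 0.71). It was 3.36 without hyperthyroid WT replicate 3, 4.63 without hyperthyroid WT replicate 1 and 2.66 with a pseudocount of 1. The SD of log2(RPKM + 0.1) among hyperthyroid livers was 1.58 for Marco, beside 0.22 to 0.4 for the other 8 markers.

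The more general myeloid markers were also higher in every hyperthyroid liver. Csf1r was at 9.79, 6.62, 5.64 and 6.46 RPKM in hypothyroid WT livers and at 19.5, 14.6, 21.9 and 21 RPKM in hyperthyroid WT livers, a log2 difference of 1.44 (SE 0.18). Lyz2 was at 17.7, 12.4, 16.5 and 17.4 RPKM in hypothyroid WT livers and at 81, 88.3, 115 and 85.5 RPKM in hyperthyroid WT livers, a log2 difference of 2.52 (SE 0.14). Ccl6 was at 1.83, 1.77, 1.65 and 2.13 RPKM in hypothyroid WT livers and at 22.9, 16.7, 15.1 and 17.4 RPKM in hyperthyroid WT livers, a log2 difference of 3.21 (SE 0.14) and a fold of 9.24. Reads could be shared with near relatives, which was not tested. Lyz1 reached at most 0.441 RPKM in any library. Ccl9, a chemokine gene related to Ccl6, was at 11.7 to 23.4 RPKM in hyperthyroid and 16.5 to 23.3 RPKM in hypothyroid WT livers and did not pass the test (limma adjusted p = 0.3).

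By group mean the order of levels in hypothyroid WT livers was Lyz2, Cd5l, Clec4f, Vsig4, Csf1r, Cd163, Ccl6, Timd4 and Marco. In this order Clec4f and Vsig4, Csf1r and Cd163, Cd163 and Ccl6, and Timd4 and Marco did not overlap, while the values of the other neighbours did. In hyperthyroid WT livers the first 5 kept their places, Ccl6 came next at 18 ± 3.4 RPKM, and Clec4f and Vsig4 were the only neighbours that did not overlap. In L-NCOR1ΔID livers Cd163 was last at 1.77 ± 0.874 RPKM and Csf1r and Ccl6 were the only neighbours that did not overlap (SD, n = 4).

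**Figure D2:**
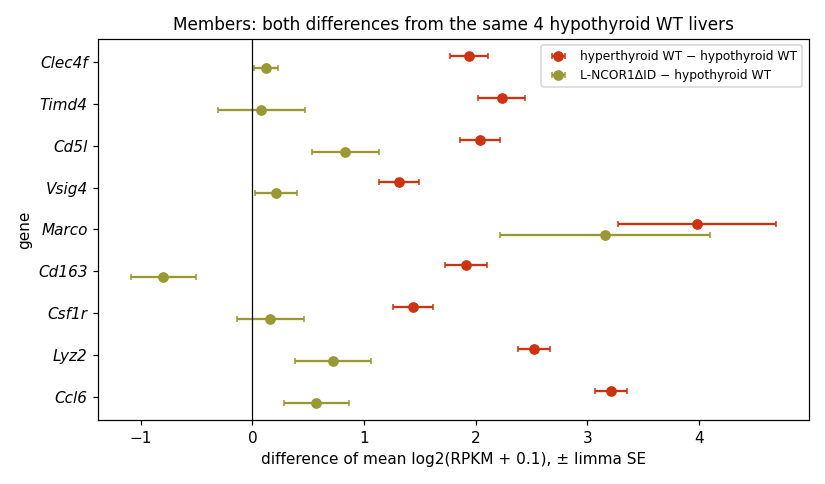
Difference of mean log2(RPKM + 0.1) from the 4 hypothyroid WT livers for each marker, with the limma SE as error bar, for hyperthyroid WT livers (red) and L-NCOR1ΔID livers (olive). The hyperthyroid differences run from 1.31 to 3.98, and the L-NCOR1ΔID differences from -0.80 to 3.16.

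In L-NCOR1ΔID livers the markers parted from one another. None of the 9 would be counted as changed at an adjusted p under 0.01, beside 0.725% of 13790 genes counted as higher and 0.544% counted as lower. None was free of overlap with the hypothyroid WT livers, beside 7.78% of genes wholly above and 5.36% wholly below them. The median difference of the 9 was 0.21, beside 0.03 over all genes that passed the filter.

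Clec4f and Cd163 were the markers at which no L-NCOR1ΔID liver stood clearly above the hypothyroid WT livers. Clec4f was at 16.7, 13.9, 15.3 and 14.3 RPKM in L-NCOR1ΔID replicates 1 to 4, a log2 difference of 0.12 (SE 0.11) from the same hypothyroid livers as above. Its 4 values lay within a narrow band, with a log2 SD of 0.12. Cd163 was at 2.96, 0.924, 1.82 and 1.39 RPKM, lower in 3 of 4 L-NCOR1ΔID livers than in every hypothyroid WT liver, with a log2 difference of -0.80 (SE 0.29).

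Marco was the marker with the widest range. It was at 3.35, 29.1, 4.62 and 0.647 RPKM in L-NCOR1ΔID replicates 1 to 4, and 3 of the 4 lay above the highest hypothyroid WT value of 0.95 RPKM. The log2 difference was 3.16 (SE 0.94), and it was 2.24 without replicate 2. Replicate 2 at 29.1 RPKM was above the highest hyperthyroid WT value of 27.9 RPKM.

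Cd5l, Lyz2 and Ccl6 were raised in L-NCOR1ΔID replicates 1 and 2 and close to the hypothyroid WT values in replicate 4. Cd5l was at 29.2, 51.4, 22.3 and 17.5 RPKM, a log2 difference of 0.83 (SE 0.30). Lyz2 was at 33.2, 51.2, 17.5 and 15.8 RPKM, a log2 difference of 0.72 (SE 0.34), and replicates 3 and 4 lay inside the hypothyroid range. Ccl6 was at 4.86, 3.51, 1.91 and 1.78 RPKM, a log2 difference of 0.57 (SE 0.29), with replicates 3 and 4 again inside that range. Its relative Ccl9 was at 25.7, 39.5, 39.9 and 41 RPKM in the same livers, each above every hypothyroid WT liver, a log2 difference of 0.92 (SE 0.17) that missed the threshold (limma adjusted p = 0.018) but passed it without L-NCOR1ΔID replicate 1 (1.08) and without replicates 1 and 2 (1.09).

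Vsig4, Csf1r and Timd4 had differences smaller than their errors or close to them. Vsig4 was at 10.5, 12.2, 6.91 and 7.78 RPKM, a log2 difference of 0.21 (SE 0.19). Csf1r was at 8.88, 13.6, 6.35 and 4.88 RPKM, a log2 difference of 0.16 (SE 0.30). Timd4 was at 1.44, 3.85, 1.4 and 0.938 RPKM, a log2 difference of 0.08 (SE 0.39) that turned to -0.31 without replicate 2.

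L-NCOR1ΔID replicate 2 was the highest of its group for 6 markers, Vsig4, Cd5l, Marco, Timd4, Csf1r and Lyz2, and the lowest for Clec4f and Cd163. Replicate 1 was the highest for the other 3 markers, and replicate 4 was the lowest for 6. Relative to the hypothyroid WT mean, the median of the 9 markers was 0.41, 0.95, 0.05 and -0.01 on the log2 scale in replicates 1 to 4. The median over the 12 pan-leukocyte genes described below was 0.80, 1.42, 0.26 and -0.04 in the same libraries, and the median over all genes with a mean of at least 1 RPKM was 0.03, 0.03, 0.00 and 0.02. Without replicates 1 and 2, a choice made after seeing the data, the median difference of the 9 markers was 0.00, Marco was at 1.95 and Cd163 at -0.83. What sets replicates 1 and 2 apart from replicates 3 and 4 was not tested.

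**Figure D3:**
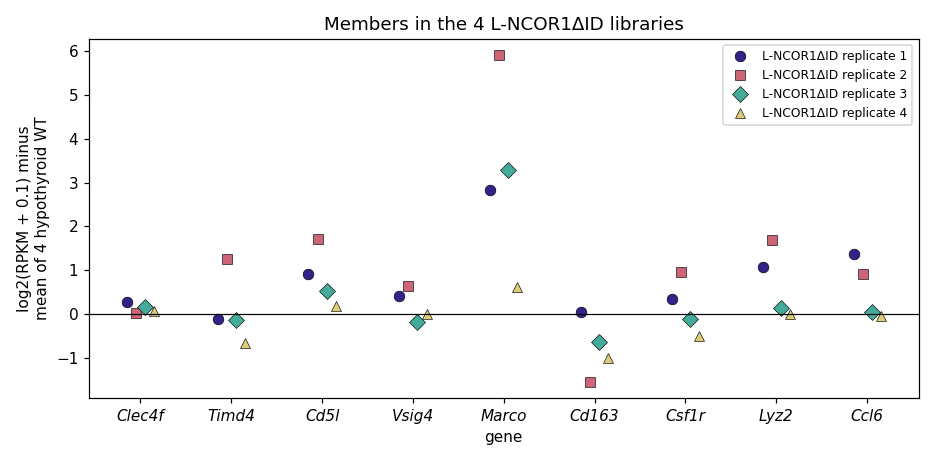
log2(RPKM + 0.1) of each marker in the 4 L-NCOR1ΔID libraries minus the mean of the 4 hypothyroid WT libraries (black line at 0), with one symbol per replicate. Clec4f stays within 0.01 and 0.27, Marco spreads from 0.62 to 5.91, and Cd163 reaches -1.55 in replicate 2, the library that is highest for 6 other markers.

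Genes outside the set were tested in the same fits, in lists of genes of the same cells, of other myeloid functions and of other liver cell types. These lists, like the markers, were drawn up with earlier results of these data known, and the counts below are read beside the shares of all genes called (8.28% higher and 3.47% lower with T3). Groups in which every hyperthyroid library lay below every hypothyroid library made up 10.8% of all genes. An unadjusted limma p under 0.05, in either direction, was reached by 7877 of 13941 genes with T3. In L-NCOR1ΔID livers 2831 of 13790 genes reached it. List counts at an unadjusted p under 0.05 are to be read beside these numbers, and nothing is read from them alone. All adjusted p-values are from limma with Benjamini-Hochberg adjustment over all genes tested.

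Of 13 further Kupffer cell genes, 10 rose with T3 and 1 fell, and their median log2 difference was 1.49. The 3 chains of complement C1q, which macrophages make, rose together. C1qb went from 15.9 ± 2.49 to a lowest hyperthyroid value of 41.5 and a highest of 54.5 RPKM, a log2 difference of 1.62 (SE 0.13, adjusted p = 2.6e-05). C1qa rose by 1.37 (SE 0.12, adjusted p = 5.2e-05) and C1qc by 1.49 (SE 0.14, adjusted p = 7e-05). Folr2, a folate receptor of resident macrophages, was at 3.17, 2.69, 2.74 and 2.4 RPKM in hypothyroid WT livers and at 12.2, 7.13, 11.2 and 11.1 RPKM in hyperthyroid WT livers, a log2 difference of 1.86 (SE 0.17, adjusted p = 4.9e-05). Adgre1 (F4/80), Fcna, Spic, Id3, Hmox1 and Mpeg1 also passed. The gene that fell was C6, a component of the terminal complement pathway, from between 48.1 and 86.1 RPKM to between 12.6 and 22.3 RPKM (log2 difference -2.05, SE 0.21, adjusted p = 9.9e-05), named here after its values were seen. The iron exporter Slc40a1 (log2 difference 0.98, SE 0.11, adjusted p = 0.00016) and Nr1h3 (0.21, SE 0.07, adjusted p = 0.033), also named after their values were seen, did not pass both thresholds. C6, Nr1h3 and Slc40a1 were the most abundant of the list in hypothyroid WT livers. Their means were 68.6, 53.3 and 33.9 RPKM, beside 13.9 RPKM for Clec4f. Which liver cells their RNA came from was not tested.

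In L-NCOR1ΔID livers 2 of the 13 Kupffer cell genes rose and none fell, beside 0.725% and 0.544% of all genes. Mpeg1, a pore-forming protein of macrophages, was at 9.97, 5.24, 5.72 and 8.58 RPKM in hypothyroid WT livers and at 19.5, 28, 21.7 and 23.1 RPKM in L-NCOR1ΔID livers. All 4 L-NCOR1ΔID values were above the hypothyroid values and the log2 difference was 1.67 (SE 0.21, adjusted p = 0.0034). With T3 Mpeg1 reached 13.4 to 18 RPKM, a log2 difference of 1.16 (SE 0.20, adjusted p = 0.0015) that fell to 0.93, under the fold threshold, when libraries were rescaled. Fcna, a ficolin of the lectin complement pathway, was at 9.11, 8.26, 9.61 and 10 RPKM in hypothyroid WT livers and at 15.2, 17.8, 16.1 and 13.5 RPKM in L-NCOR1ΔID livers, a log2 difference of 0.75 (SE 0.10, adjusted p = 0.0047). In hyperthyroid WT livers Fcna was at 32.6, 18.7, 29.6 and 32 RPKM, a log2 difference of 1.57 (SE 0.17, adjusted p = 0.00012). Both L-NCOR1ΔID calls are fragile. The Mpeg1 call was lost without hypothyroid WT replicate 2, 3 or 4 or L-NCOR1ΔID replicate 3 (adjusted p = 0.01, 0.013, 0.01 and 0.013), and the Fcna call without any 1 library other than L-NCOR1ΔID replicate 4 (adjusted p from 0.01 to 0.019).

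Among 13 phagocytic receptor genes that passed the filter, 7 rose with T3 and none fell, with a median log2 difference of 1.07. Siglec1, a sialic acid receptor of macrophages, was at 0.791, 0.565, 0.58 and 0.565 RPKM in hypothyroid and at 4.12, 2.98, 3.98 and 3.74 RPKM in hyperthyroid WT livers (log2 difference 2.39, SE 0.15, adjusted p = 9e-06). The Fc receptors Fcgr1 and Fcgr4 rose by 1.84 (SE 0.16, adjusted p = 4.3e-05) and 1.81 (SE 0.20, adjusted p = 0.00014). Axl, a receptor for dying cells, rose by 1.34 (SE 0.16, adjusted p = 0.00018). In L-NCOR1ΔID livers none of 14 was called by limma, while 6 were higher at an unadjusted p under 0.05. The 2 most abundant genes of this list, Cd36 and Cd9, had log2 differences of 0.19 (SE 0.37, adjusted p = 0.82) and 0.61 (SE 0.18, adjusted p = 0.11).

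Growth factors and regulators of myeloid cells moved with T3 in part. Of 12, 4 rose and none fell (median log2 difference 0.93). Csf1, the ligand of the marker Csf1r, was at 1.63, 0.939, 1.44 and 1.15 RPKM in hypothyroid and at 4.23, 4.11, 3.55 and 3 RPKM in hyperthyroid WT livers (log2 difference 1.47, SE 0.18, adjusted p = 0.00025). Spi1, which encodes the factor that binds the PU box, rose by 1.63 (SE 0.19, adjusted p = 0.00018). Runx1 rose by 1.67 (SE 0.33, adjusted p = 0.0031) and Csf2rb by 1.03 (SE 0.18, adjusted p = 0.0015). Csf2rb fell under the fold threshold when libraries were rescaled (0.81) and without any of hypothyroid WT replicates 2, 3 and 4 or hyperthyroid WT replicate 2 (0.93 at the lowest). In L-NCOR1ΔID livers limma called none of the 12, also at an unadjusted p under 0.05, and Maf, among the most abundant of the list, had a log2 difference of 0.07 (SE 0.16, adjusted p = 0.86).

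Lysosomal genes are read beside the shares of all genes called, 8.28% higher and 3.47% lower with T3. Of 14, 2 rose with T3, the cathepsins Ctsc, by 2.69 (SE 0.18, adjusted p = 1.2e-05), and Ctss, by 1.27 (SE 0.15, adjusted p = 0.00018), and the median log2 difference was 0.11. In L-NCOR1ΔID livers 7 of the 14 were higher at an unadjusted p under 0.05 and none lower, with a median log2 difference of 0.28. Limma called 1 of the 14 there, beside 0.725% of all genes counted as higher. The called gene was the cathepsin Ctsl. It was at 51.9, 39.9, 48.5 and 53.1 RPKM in hypothyroid WT livers and at 138, 190, 143 and 100 RPKM in L-NCOR1ΔID livers (log2 difference 1.53, SE 0.18, adjusted p = 0.0026). Its call was lost without hypothyroid WT replicate 2, 3 or 4 or L-NCOR1ΔID replicate 3 (adjusted p from 0.01 to 0.012).

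A list of 12 genes of white blood cells, here called pan-leukocyte, also holds genes that are mainly myeloid, such as Aif1, Tyrobp, Fcer1g and Lst1. Of these 12 genes, 11 rose with T3 and none fell, with a median log2 difference of 1.38. Aif1 rose by 1.91 (SE 0.15, adjusted p = 2.4e-05), Itgb2 by 1.75 (SE 0.15, adjusted p = 4.3e-05), Cd53 by 1.68 (SE 0.16, adjusted p = 7.5e-05) and Rac2 by 1.69 (SE 0.17, adjusted p = 8e-05). The summed level of the list was 45.6 to 54.3 RPKM in hypothyroid WT livers, 84.4 to 98.5 in hyperthyroid WT livers and 53.2 to 90.1 in L-NCOR1ΔID livers. In L-NCOR1ΔID livers limma called none of the 12, while 2 were higher at an unadjusted p under 0.05. The 2 most abundant, Lcp1 and Tyrobp, had log2 differences of -0.03 (SE 0.09, adjusted p = 0.9) and 0.52 (SE 0.24, adjusted p = 0.27).

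Of 6 monocyte genes that passed the filter, 3 rose with T3, Itgam by 2.04 (SE 0.18, adjusted p = 4.5e-05), Plac8 by 1.33 (SE 0.13, adjusted p = 7.9e-05) and Ccr2 by 1.22 (SE 0.22, adjusted p = 0.0019). Their list summed to 2.94 to 4.56 RPKM in hypothyroid WT, 9 to 13.1 in hyperthyroid WT and 5.35 to 9 in L-NCOR1ΔID livers, where limma called none of 7, while 5 were higher at an unadjusted p under 0.05. Of 4 neutrophil genes 3 rose with T3, S100a9 by 3.49 (SE 0.60, adjusted p = 0.0014), Csf3r by 1.57 (SE 0.29, adjusted p = 0.0022) and S100a8 by 3.15 (SE 0.70, adjusted p = 0.0052), and the list summed to 0.458 to 1.17, 2.41 to 20.9 and 0.679 to 2.53 RPKM in the 3 groups in the same order. The S100a8 call was lost when libraries were rescaled (adjusted p = 0.01) and without hypothyroid WT replicate 2 or 3 or hyperthyroid WT replicate 1, 2 or 3 (adjusted p = 0.012 to 0.014). None of 3 neutrophil genes was called by limma in L-NCOR1ΔID livers, with 2 higher at an unadjusted p under 0.05. Limma called none of 10 lymphocyte genes with T3 (4 higher at an unadjusted p under 0.05) and none of 9 in L-NCOR1ΔID livers (1 lower), and the list summed to at most 6.16 RPKM in any library. Limma called none of 10 genes of antigen presentation and dendritic cells in either comparison (3 and 1 higher at an unadjusted p under 0.05), with Cd74 at a log2 difference of 0.59 (SE 0.24, adjusted p = 0.065) with T3 and -0.51 (SE 0.27, adjusted p = 0.31) in L-NCOR1ΔID livers.

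Inflammatory genes that passed the filter numbered 12, of which 5 rose with T3 and none fell. Cd14, a coreceptor for bacterial lipopolysaccharide, rose by 1.80 (SE 0.16, adjusted p = 5.4e-05), and Nlrp3, Ccl4 and Ccl24 rose by 1.03 to 1.44 (adjusted p = 0.0017, 0.0021 and 0.0031). Nlrp3 and Ccl4 were under 0.6 RPKM in every library, and Nlrp3 fell under the fold threshold when libraries were rescaled (0.85) and without hypothyroid WT replicate 2 or hyperthyroid WT replicate 2 (0.97 and 0.92). Without hypothyroid WT replicate 4 the Ccl24 call was lost (adjusted p = 0.011). In L-NCOR1ΔID livers limma called none of the 12, with 3 higher and 2 lower at an unadjusted p under 0.05, and the most abundant, Cxcl1, had a log2 difference of -0.74 (SE 0.23, adjusted p = 0.12).

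Lists of other cells of the liver are read beside the shares of all genes called, 8.28% higher and 3.47% lower with T3. In L-NCOR1ΔID livers these shares were 0.725% and 0.544%. The lists are short, so nothing is read from their counts. Of 12 sinusoidal endothelial genes 1 rose with T3, Lyve1, by 1.52 (SE 0.23, adjusted p = 0.00074), and the median log2 difference was 0.29. In L-NCOR1ΔID livers, a value given after it was seen, Lyve1 had a log2 difference of 1.80, 1.57 to 2.21 without any 1 library. It missed the threshold there but passed in 2 of 19 alternatives, and the median of the 12 genes was 0.19. Limma called none of the 10 stellate cell genes with T3, while 6 were higher at an unadjusted p under 0.05, with Dcn at a log2 difference of 0.58 (SE 0.11, adjusted p = 0.0021), below the fold threshold, and none of the 12 endothelial and 10 stellate cell genes in L-NCOR1ΔID livers, with 2 and 4 higher at an unadjusted p under 0.05. Of 5 cholangiocyte genes 1 rose with T3, Krt7, by 1.16 (SE 0.26, adjusted p = 0.0055), a call lost when libraries were rescaled (adjusted p = 0.02) and without hypothyroid WT replicate 1, 3 or 4 or hyperthyroid WT replicate 1 or 2 (adjusted p = 0.011 to 0.018), and none was called in L-NCOR1ΔID livers at either p. Of 10 hepatocyte genes none rose and 2 fell with T3, Ttr (log2 difference -1.55, SE 0.16, adjusted p = 0.00011) and Alb (log2 difference -1.16, SE 0.28, adjusted p = 0.0082), the latter call lost when libraries were rescaled (adjusted p = 0.024) and without any 1 library other than hyperthyroid WT replicate 4 (adjusted p = 0.015 to 0.029), and limma called none of the 10 in L-NCOR1ΔID livers, with 2 lower at an unadjusted p under 0.05. Of 4 erythroid genes, Alas2, which makes haem in red cell precursors, fell with T3 (log2 difference -2.91, SE 0.20, adjusted p = 1.6e-05), while the globin genes Hbb-b1, Hba-a1 and Hba-a2, named after their values were seen, were higher in every hyperthyroid than in every hypothyroid WT liver (log2 differences 0.80 to 0.88, adjusted p = 0.0065, 0.0087 and 0.0087) but under the fold threshold. Hba-a1 and Hba-a2 are near-identical copies and may share reads. Alas2 also fell in L-NCOR1ΔID livers (log2 difference -1.10, SE 0.14, adjusted p = 0.0042). The latter call was lost without any 1 hypothyroid WT library or L-NCOR1ΔID replicate 3 (adjusted p = 0.012 to 0.019). What part a change in hepatocyte RNA, in leukocyte number or in RNA per cell has in the marker values was not tested.

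**Figure D4:**
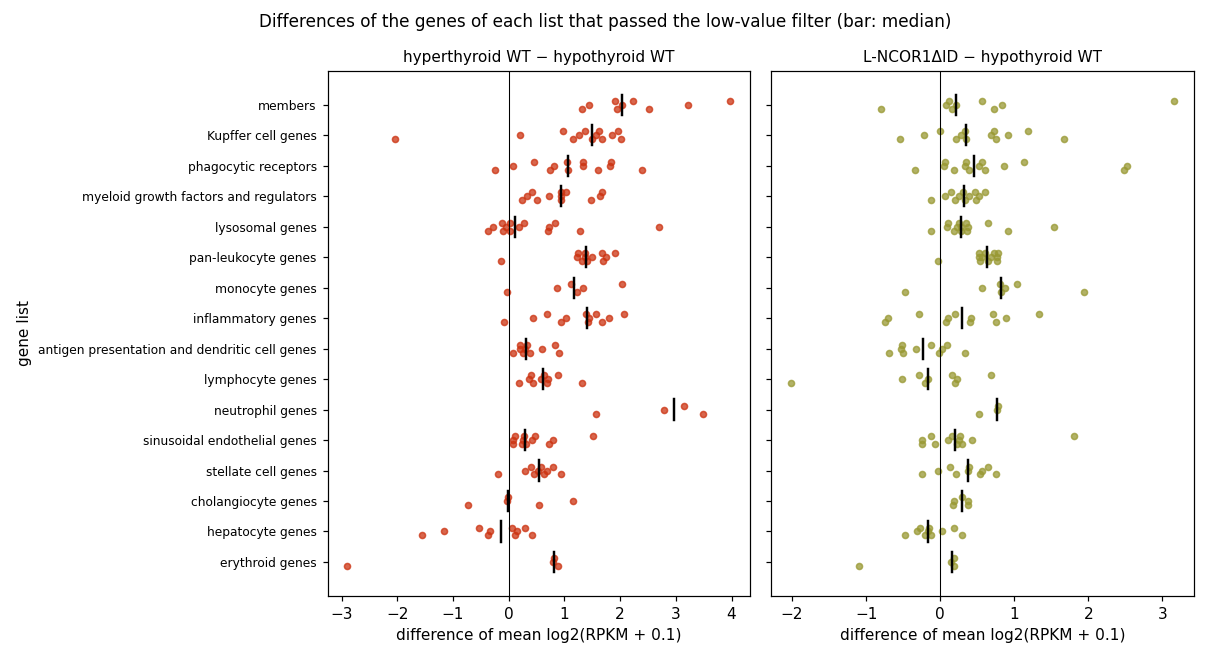
Difference of mean log2(RPKM + 0.1) from hypothyroid WT livers for each gene of each list that passed the filter on low values, in hyperthyroid WT livers (left) and L-NCOR1ΔID livers (right), with a black bar at the median of the list. With T3 the medians are 2.97 for the 4 neutrophil genes, 2.04 for the markers, 1.49 for further Kupffer cell genes and 1.41 for inflammatory genes. They are 1.38 for pan-leukocyte, 1.17 for monocyte, 1.07 for phagocytic receptor and 0.93 for myeloid regulator genes. Erythroid genes are at 0.81, lymphocyte at 0.61, stellate cell at 0.55, antigen presentation at 0.31 and sinusoidal endothelial genes at 0.29. Lysosomal, cholangiocyte and hepatocyte genes are at 0.11, -0.02 and -0.13.

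Among 10654 other genes with a mean of at least 1 RPKM, profiles over the 12 libraries were compared with those of 2 markers by the root mean square (RMS) of the differences of centred log2 values. The genes closest to Clec4f were Folr2 (RMS 0.18), Zfp386 (0.21), Ssh2 (0.22), Spp2 (0.23) and Setd4 (0.25), beside a median of 0.84 over all genes compared. Spp2 was at 55.3 ± 3.54 RPKM in hypothyroid WT, 224 ± 12.7 in hyperthyroid WT and 68.6 ± 4.11 in L-NCOR1ΔID livers (SD, n = 4). The genes closest to Cd5l were Adgre1 (0.13), Treml4 (0.19), Ncf1 (0.20), Clec12a (0.21) and Cfp (0.22), beside a median of 0.87. Adgre1 was at 2.3 ± 0.618, 9.17 ± 2.26 and 4.29 ± 2.82 RPKM in the same groups, and its L-NCOR1ΔID values were 3.75, 8.41, 2.78 and 2.22. Clec4f and Cd5l themselves were 0.50 apart, and Marco was the marker farthest from both (1.92 and 1.54). The 12 libraries of each profile are shared by all genes, so these distances are a description and carry no p.

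A readout that the choice of the markers did not use is a list of 37200 regions of acetylated histone H3 (H3K9Ac or H3K27Ac ChIP-seq), which the authors merged over conditions, so it has no value per group. Such a region covered the transcription start site of 7 of the 9 markers (77.8%), and of 8 when regions within 1 kb were counted. Of all 21886 genes with a position 56.1% had a region over the start, and of the 6119 genes with a mean level inside the range of the markers (3.76 to 45.9 RPKM) 94.6% did. Of the 13 further Kupffer cell genes 12 had one, as did all 12 sinusoidal endothelial genes, while none of the 13 lymphocyte genes did.

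The widest region was at Clec4f (chr6:83594536-83606181, minus strand), 11186 bp long at chr6:83595969-83607154, from 973 bp before the start to 10212 bp into the gene. The start of Ccl6 (chr11:83401384-83406589, minus strand) lay in a region of 6531 bp. That of Csf1r on chromosome 18 lay in one of 6020 bp, and that of Cd5l (chr3:87161803-87174996, plus strand) in one of 6015 bp. Vsig4 (chrX:93442542-93488777, minus strand), Lyz2 (chr10:116714390-116719377, minus strand) and Timd4 (chr11:46624302-46657834, plus strand) had regions of 4135, 2602 and 2412 bp over the start. At Cd163 (chr6:124254669-124280545, plus strand) a region of 4257 bp began 48 bp past the annotated start, inside the gene.

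Marco (chr1:122371115-122401661, minus strand) stood apart from the other markers. It had no acetylated region within 100 kb of its start, and the nearest lay 149123 bp away. Its mean level in hyperthyroid WT livers, 11.4 ± 11.4 RPKM (SD, n = 4), was near that of Cd163, 11.6 ± 3.28 RPKM. Whether the livers used for ChIP-seq had Marco RNA was not tested.

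**Figure D5:**
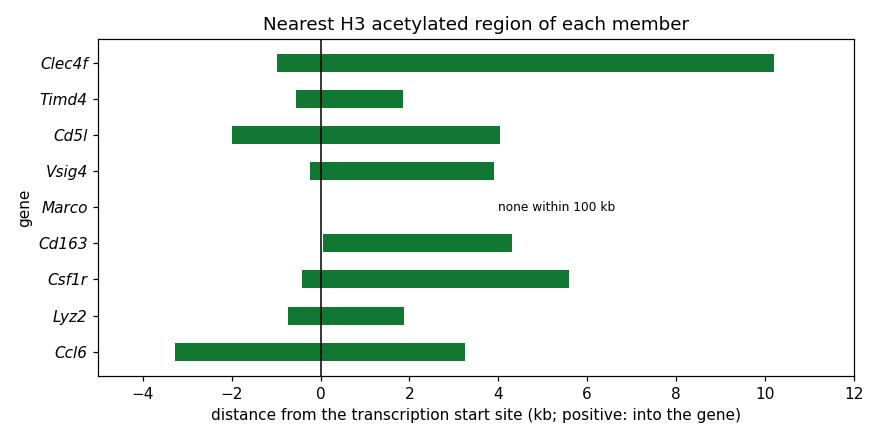
Extent of the H3 acetylated region nearest to the start of each marker gene, in kb from the transcription start site (vertical line), with positive values pointing into the gene. Regions over the start are seen for 7 markers, the region of Cd163 begins 48 bp inside the gene, and Marco has none within 100 kb.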

How the data were processed

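Liver RNA-seq (poly(A) RNA, runs from 2 instruments merged per library) of 12 mice was analysed. The authors aligned reads to mm9 with STAR and computed RPKM per RefSeq transcript with HOMER, and they tested counts with DESeq2 (versions are not given in the sources used here). The deposited values are RPKM. The authors also deposited start and end positions of merged H3K9Ac and H3K27Ac regions, with no value per sample. The other ChIP-seq libraries were not analysed here.

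The first listed transcript stood for each of 23813 genes (31370 transcripts, 1 without a gene name, at most 0.000785% of summed RPKM). A gene entered a comparison if 4 or more of its libraries reached 0.1 RPKM. The test was limma's moderated linear model (limma 3.58.1, R 4.3.3; variance trend on, 2 groups per fit), run on the log2 of RPKM after adding 0.1, and p-values were adjusted by Benjamini-Hochberg over all genes. A difference is on this log2 scale and understates changes of low genes. Thresholds were those of the study, an adjusted p under 0.01, with a log2 difference above 1 in size for T3. The procedure was tested on simulated data. Positions are from GENCODE M1, on the same build as mm9, with 20036 genes matched by symbol and 1850 by an older symbol. Depth was estimated from the steps between low RPKM values. The study's methods call the 4 libraries of a group biological replicates.

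The markers and all lists were chosen with earlier results of these data known. Genes named from a list are those past the thresholds with the smallest adjusted p, up to 4, or else the 2 most abundant. The 5 genes nearest to Clec4f and Cd5l were named by RMS. One gene that this rule names is not reported here. Exceptions are marked as named after their values were seen. Alternatives were 2 other pseudocounts, other filters, all 12 libraries in 1 fit, a replicate block, no trend, rescaling, other thresholds, another transcript and each library left out.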

Additional observations from a re-analysis of the deposited data

Results flagged for a closer look

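In 195 groups of 4 livers, covering the 9 markers and the genes named from lists, 15 had a liver whose gap to the others exceeded the 95% critical value of Dixon's test. Chance alone gives about 1 in 20. Among the markers, Marco at 0.95 RPKM in hypothyroid WT replicate 3 stood above 0.232 to 0.32 in the others, Marco at 29.1 RPKM in L-NCOR1ΔID replicate 2 above 0.647 to 4.62, and Timd4 at 2.44 RPKM in hypothyroid WT replicate 1 above 1.23 to 1.39.

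Hypothyroid WT replicate 1 was also high for Siglec1 (0.791 RPKM), Csf2rb (1.31 RPKM) and Cd14 (1.4 RPKM). In the same group Krt7 was high in replicate 2 (0.428 RPKM).

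Among hyperthyroid WT livers, replicate 2 was low for C1qa (37.2 RPKM) and Axl (4.31 RPKM), replicate 3 was high for Itgb2 (5.46 RPKM) and replicate 4 high for Ttr (1843 RPKM). Among L-NCOR1ΔID livers, replicate 2 was high for Aif1 (3.89 RPKM) and low for Ccl24 (0.182 RPKM), replicate 4 high for Cxcl1 (6.38 RPKM) and replicate 1 low for Ccl9 (25.7 RPKM).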

How the results depend on the processing

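The 9 markers kept their direction with T3 under every alternative run (log2 differences from 1.07 for Vsig4 to 4.63 for Marco, which was at 2.66 with a pseudocount of 1), and their median was 1.95 to 2.17 without any 1 library, 1.87 with a pseudocount of 1 and 1.80 when libraries were rescaled to equal medians of gene ratios. In L-NCOR1ΔID livers the median was 0.13 to 0.39 without any 1 library. With a region within 1 kb in place of overlap, 8 markers had an acetylated start.

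With T3, 1155 genes rose and 484 fell. The counts were 575 and 319 with a pseudocount of 1, 746 and 679 after rescaling, which shifts the median of all genes by 0.23, and 3413 and 1075 with no fold threshold. They were 994 to 1139 and 383 to 485 without any 1 library. Of the Kupffer cell genes, 9 to 11 rose and 1 fell without any 1 library, and 8 rose after rescaling. With a pseudocount of 1 the T3 calls of Fcgr1, Csf2rb, Runx1, Itgam, Ccr2, Nlrp3, Ccl4, Ccl24, Csf3r and Krt7, all of low level, were lost to the fold threshold. With a pseudocount of 0.01 those of Ccl4 and S100a8 were lost, and without the filter that of Alb.

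In L-NCOR1ΔID livers 100 genes rose and 75 fell, 36 to 110 and 28 to 77 without any 1 library. The lower count was 118 with all 12 libraries in 1 fit, the higher count 63 without a variance trend and 48 without replicates 1 and 2, and both were 344 and 257 at an adjusted p under 0.05. The Kupffer cell genes that rose, 2, became 0 to 2 without any 1 library, 1 with all 12 in 1 fit or without the trend, and 0 without replicates 1 and 2. Where a call was lost, the cause was not tested.

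The labels do not say whether replicate numbers pair the mice. No steady pairing was seen in the values, which cannot exclude it. Deviations of same-numbered livers correlated at 0.06, -0.08, 0.08 and -0.02 for T3 and at 0.27, -0.21, 0.15 and -0.19 for L-NCOR1ΔID, and 2 and 1 of 4 hypothyroid livers correlated best with their own number. With the replicate number as a block, 1055 genes rose and 451 fell with T3, 20 and 25 in L-NCOR1ΔID livers, where the Kupffer cell genes called fell to 0.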

Other observations

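A few genes of the myeloid lists, named after their values were seen, were under 0.3 RPKM in all WT livers and higher in some or all L-NCOR1ΔID livers. Trem2, a lipid receptor of macrophages, was at 0, 0.028, 0.06 and 0.16 RPKM in hypothyroid WT livers, at 0.164 to 0.279 in hyperthyroid WT livers and at 1.61, 0.804, 0.369 and 0.699 in L-NCOR1ΔID replicates 1 to 4. Its log2 difference of 2.52 (SE 0.42) missed the threshold (limma adjusted p = 0.012). Gpnmb, a membrane glycoprotein of lipid-laden macrophages, was at 0.008 to 0.138, 0.021 to 0.105 and 0.034 to 2.25 RPKM in the same groups, with L-NCOR1ΔID replicates 1 and 2 the highest and replicate 4 inside the hypothyroid WT range (log2 difference 2.48, SE 0.81, adjusted p = 0.12). Cx3cr1, a fractalkine receptor of monocytes, was at 0.009 to 0.073, 0.071 to 0.191 and 0.243 to 0.98 RPKM (log2 difference 1.94, SE 0.35, adjusted p = 0.018), with replicate 4 the highest. These levels rest on few reads.

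In hyperthyroid WT livers the inflammatory chemokine Cxcl1 was at 35.4, 126, 17.7 and 3.48 RPKM and S100a9 at 5.04, 9.41, 2.43 and 0.883 RPKM in replicates 1 to 4, so replicate 2, the lowest of the group for 6 of the 9 markers, was the highest for both.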
